A study of Mus musculus with 6 samples.

Results

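The genes described here make ribosomes: 40 rows of a table of 24848 gene symbols, chosen by name. They are the ribosomal RNA precursor (listed as Rn45s), the transcription factor Myc, and 38 genes for RNA polymerase I (Pol I), its initiation factors and the proteins that process pre-ribosomal RNA and assemble it in the nucleolus. All 40 were in the table, and 39 reached the level needed for testing. Their levels were compared between RAW 264.7 cells with an APOBEC1 knockout (KO) and RAW 264.7 cells labelled WT. RAW 264.7 is a mouse macrophage-like tumour line, and APOBEC1 is an enzyme that converts C to U in RNA. There were 3 KO and 3 WT libraries of poly(A) RNA, each from a plate of its own. All cells were grown in the same serum-containing medium with no treatment given in the labels. The labels do not say how the knockout was made or how many clones were kept, which means that the genotype cannot be told apart from anything else that differs between the lines. The p-values measure the spread between plates.

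Ribosome synthesis begins when Pol I, brought to the ribosomal DNA by UBF, the SL1 complex and RRN3, transcribes a long precursor. Small nucleolar RNPs then modify this precursor, the small subunit (SSU) processome cuts out and folds the 18S part for the 40S subunit, and another set of factors builds the 60S subunit around the remaining parts. MYC is known to raise the transcription of many of these genes, often through the DNA motif CACGTG, and ribosome output is tied to growth in macrophages as in other cells.

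The libraries held from 50493447 to 70411383 reads in genes, and levels are given in CPM, reads scaled to a common library total, on which 1 read equals 0.0142 to 0.0198. The test, run with limma on log2(CPM + 0.5), took in all genes that reached 1 CPM in 3 or more of the 6 libraries, and a gene is called when its Benjamini-Hochberg adjusted p over the 10614 tested genes is under 0.05. Log2 fold changes are KO minus WT on that scale ± SE, and they understate the change of low genes. Apobec1 averaged 347 ± 12.5 CPM in KO and 399.8 ± 29.3 CPM in WT libraries (SD, n = 3 each). The groups did not overlap (KO up to 361.2 CPM, WT from 372.5 CPM), yet limma did not call the difference (adjusted p = 0.0663). Nor did edgeR (adjusted p = 0.0784), whereas DESeq2 called Apobec1 lower (adjusted p = 0.0327). Limma also called it lower once each library was corrected for length and GC content of transcripts (adjusted p = 0.0123). Its message level does not check the genotype because the kind of change made to the gene is not stated. All 10 macrophage markers were present, summing to 3970 to 4402 CPM in KO and 3667 to 3810 CPM in WT libraries. The defining markers of fibroblasts, T cells, B cells and epithelial cells summed to under 0.5 CPM in every library. Of 4 neutrophil markers 3 were at 0 (Ly6g, S100a9 and Elane), and the sum was 3.12 to 4.55 CPM in KO and 0.856 to 1.07 CPM in WT libraries. In bulk RNA, fewer cells of a type and less RNA per cell cannot be told apart. WT replicate 2 stood apart from the other WT libraries in its share of reads in the Rn45s row and WT replicate 1 in a trend with GC content, both given with the results.

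For most of these genes no difference between the lines was called. Of 39 tested members, 6 were called higher in KO cells, namely Polr1b, Rrn3, Utp20, Rrp12, Wdr12 and Pa2g4, and 2 were called lower, namely Polr1c and Taf1b. That is 20.5% of the members, against a background of 30.4% called among all 10614 tested genes. By direction, 15.4% of members were called higher against 13.5% of all tested genes, and 5.13% were called lower against 16.9%. In this limma fit the share called in either direction is thus below the background, and the share called higher is near it. The median log2 fold change of the members was 0.11, beside -0.02 over all tested genes, with 30 members above 0 and 9 below. All KO libraries were above all WT libraries for 16 of the 39 members, a larger share than the 20.9% of all tested genes. They were below all WT libraries for 2 of the 39, a smaller share than the 25.4% of all tested genes.

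The size of the differences was small. Among the 30 uncalled members other than Rn45s, log2 fold changes ran between -0.28 and 0.26. Their 95% intervals reached down to -0.63 (Taf1a) and up to 0.48 (Rrp9), and 29 of the 30 intervals lay within 1.5-fold in either direction. An unadjusted p under 0.05 was seen for 6 of these 30, all of them higher in KO cells. edgeR on the recovered reads called 9 of the 39 members higher (15.4% of all tested genes) and 2 lower (16.2% of all tested genes). It added Heatr1, Nop14 and Ddx21 to the higher ones. DESeq2 called 13 of the 39 members higher (17.6% of all tested genes) and 2 lower (17.8% of all tested genes). With both tools the share of members called higher was above that of all tested genes. With limma, leaving out KO replicate 2, KO replicate 3 or WT replicate 3 each brought the higher calls down to 3. Over all tested genes the higher calls fell too, from 1436 to 978, 984 and 994 in these fits. Leaving out any KO replicate brought the lower calls of members down to 1. Without KO replicates 1 to 3 in turn, those of all tested genes fell from 1794 to 1016, 1216 and 1380.

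**Figure D1:**
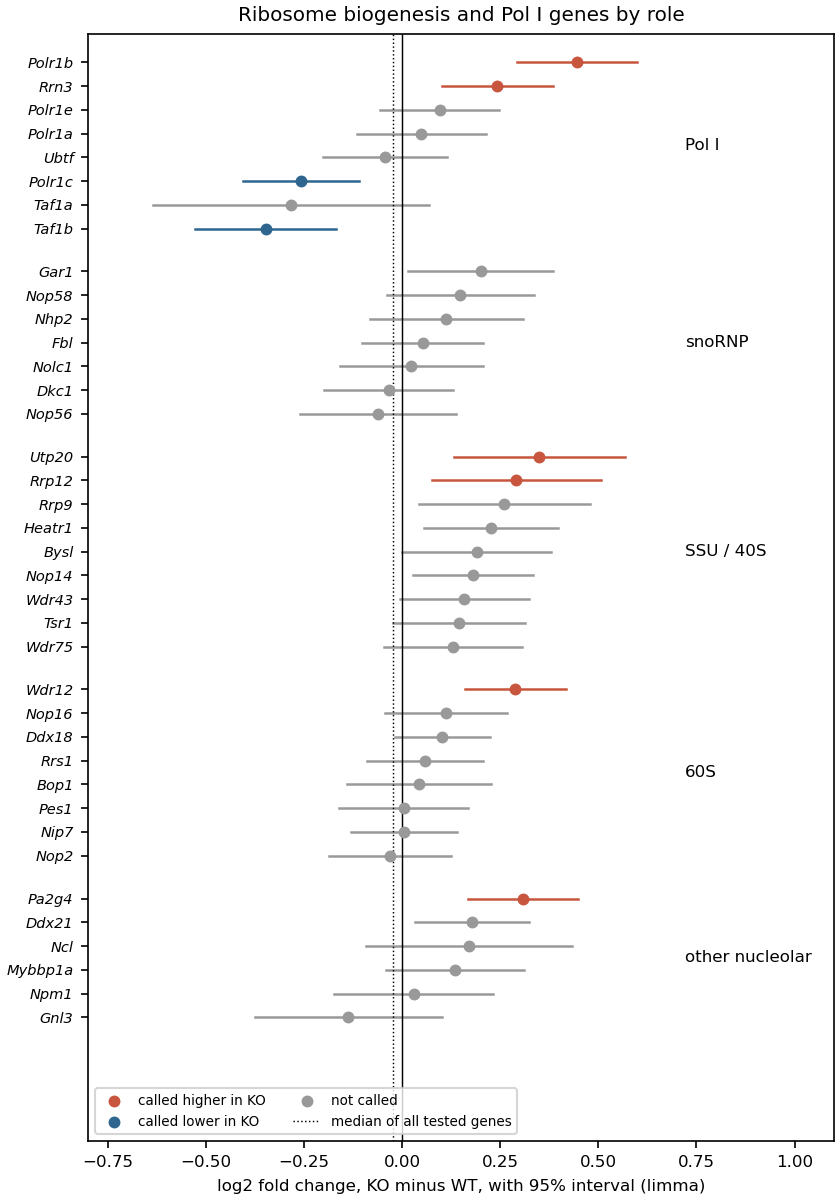
Log2 fold change (KO minus WT) of the 38 tested protein-coding members with its 95% interval from limma, grouped by role; a dotted line marks the median of all tested genes. All 9 SSU and 40S members lie right of 0 whereas the Pol I group runs from -0.35 (Taf1b) to 0.45 (Polr1b), and Rn45s, at -0.80, is left out.

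The row of the ribosomal RNA precursor was the most variable of the tested members. Rn45s, the 45S transcript that Pol I makes and that carries the 18S, 5.8S and 28S sequences, stood at 13984, 5419 and 6349 CPM in KO replicates 1 to 3, against 27477, 3811 and 24349 CPM in WT replicates 1 to 3. The lowest and the highest library of all 6 were both WT, so the KO values lay inside the WT range. As a share of all assigned reads, Rn45s took 1.40%, 0.542% and 0.635% in KO and 2.75%, 0.381% and 2.43% in WT libraries. By level it ranked 2, 5 and 4 in KO replicates 1 to 3 and 1, 8 and 1 in WT replicates 1 to 3. The log2 fold change was -0.80 ± 0.73 with a 95% interval from -2.48 to 0.88 (adjusted p = 0.446). An exact permutation test, two-sided, had p = 0.4, where 3 against 3 libraries cannot go below 0.1. Without WT replicate 2 the fold change became -1.72 and was called (adjusted p = 0.00373), so this single library decides the call. The precursor has no poly(A) tail, the libraries were selected for poly(A), and duplicate reads had been removed before counting. Because the row carries the 18S, 5.8S and 28S sequences, reads of mature ribosomal RNA cannot be told apart from reads of the precursor. How much of this row reflects carry-over of ribosomal RNA was not tested.

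The Myc row was almost empty. Myc had 25, 24 and 19 reads in KO replicates 1 to 3 (0.355, 0.402 and 0.285 CPM) and 3, 14 and 11 reads in WT replicates 1 to 3 (0.0594, 0.208 and 0.188 CPM). The KO libraries were all above the WT libraries, yet every value was below the 1 CPM filter, so Myc was not tested in the reported fit. With no filter on low values, over 17165 genes, limma called it higher (log2 fold change 0.38, adjusted p = 0.0311). At so few reads the fold change depends on the pseudocount, with 0.38 on the log2 scale at a pseudocount of 0.5, 0.88 at 0.1 and 0.23 at 1. The table also lists at 0 reads in all libraries some genes that cells commonly need, among them Polr2e (a subunit shared by the nuclear RNA polymerases), Nob1 (the nuclease that finishes 18S rRNA), Wdr18 and Rpp14. A row near 0 is therefore given here as listed, not as evidence that the gene is silent.

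Mycn, the paralogue that binds the same motif with the same partner MAX, was by contrast among the abundant genes. It stood at 915.5, 1065 and 964 CPM in KO libraries, against 1226, 999.6 and 1035 CPM in WT libraries, and ranked 92 by mean level among the 10614 tested genes. The groups overlapped, and its log2 fold change was -0.14 ± 0.10 (adjusted p = 0.307). Mycl, the remaining family member, was listed at 0 reads in every library, like the genes at 0 named above. Max averaged 118.6 ± 4.16 CPM in KO and 117.1 ± 7.65 CPM in WT libraries, a log2 fold change of 0.02 ± 0.07 (adjusted p = 0.859). Over the 14 tested MYC partners and antagonists, limma called none higher (13.5% of all tested genes) and 1 lower (16.9% of all tested genes). At an unadjusted p under 0.05, 1 was higher and 3 were lower, edgeR called 1 higher and 2 lower, and DESeq2 called 1 higher and 3 lower. The gene lower by limma was Mxd4, a repressor that competes with MYC for MAX, at 6.25 ± 0.361 CPM in KO and 10.2 ± 0.559 CPM in WT libraries (log2 fold change -0.66 ± 0.09, adjusted p = 0.00105).

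**Figure D2:**
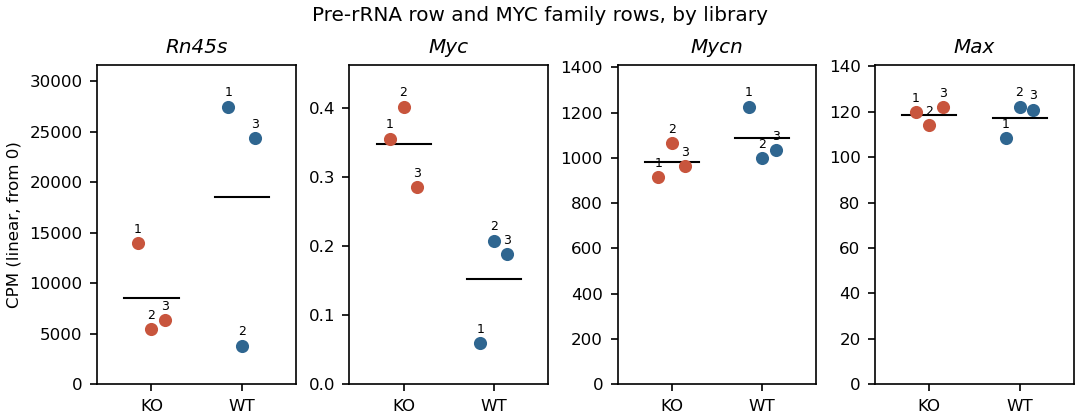
Level in CPM (linear axes from 0) of Rn45s, Myc, Mycn and Max in each KO and WT library, numbered by replicate, with a line at the group mean. Rn45s in WT replicate 2 (3811 CPM) lies below every other library while WT replicates 1 and 3 are the highest, Myc stays under 0.5 CPM throughout, and Mycn lies between 915.5 and 1226 CPM.

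Pol I and its initiation factors moved in both directions. Of the 8 tested, 2 were called higher (13.5% of all tested genes) and 2 lower (16.9% of all tested genes). There were 4 fold changes above 0 and 4 below, with a median of 0.00. Polr1b encodes the second-largest catalytic subunit (chr2:129100995-129126594, plus strand, mm10). It had 125.2, 137.4 and 139.5 CPM in KO libraries, against 97.6, 101.7 and 95.5 CPM in WT libraries. Its groups were well separated, and with a log2 fold change of 0.45 ± 0.07 (adjusted p = 0.00192) it had the largest positive change of the 39 tested members. Rrn3, the factor that makes Pol I competent for initiation in response to growth signals (chr16:13780708-13814839, plus strand), had 109.7, 115.2 and 113.7 CPM in KO libraries, against 90.6, 97.95 and 97.55 CPM in WT libraries. The lowest KO library was above the highest WT library, and the log2 fold change was 0.24 ± 0.06 (adjusted p = 0.0201). This call was lost without any 1 of the KO replicates, without WT replicate 3 and with quantile normalization (lowest log2 fold change over all alternatives 0.18, highest adjusted p 0.0964).

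The promoter of Rrn3 is shown because it is 1 of the 2 called members whose promoter window holds CACGTG, the canonical E-box that MYC-family proteins and other factors bind. The stretch below is the 250 bases before the RefSeq start site, chr16:13780449-13780698 on the plus strand of GRCm38.p6 (the assembly called mm10), read 5′ to 3′, with each CACGTG in capitals; the motifs begin at bases -215 and -48 from the start.
Rrn3 promoter: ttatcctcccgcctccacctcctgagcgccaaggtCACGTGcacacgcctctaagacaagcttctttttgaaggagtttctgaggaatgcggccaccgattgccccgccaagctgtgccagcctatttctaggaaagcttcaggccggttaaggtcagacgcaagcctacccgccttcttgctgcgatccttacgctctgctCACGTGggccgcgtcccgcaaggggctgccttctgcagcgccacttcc

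The subunits called lower act at other points of the same machine. Polr1c encodes a small subunit that Pol I shares with RNA polymerase III (chr17:46243920-46248054, minus strand). It had 62.3, 63.5 and 59.7 CPM in KO libraries, against 77.5, 73.8 and 70.8 CPM in WT libraries. The groups did not overlap, and the log2 fold change was -0.26 ± 0.06 (adjusted p = 0.0191). Taf1b, a subunit of the promoter-recognition complex SL1 (chr12:24498359-24558539, plus strand), had 49.7, 46.2 and 49.6 CPM in KO libraries, against 57.0, 66.9 and 61.96 CPM in WT libraries. Every KO library was below every WT library (log2 fold change -0.35 ± 0.08, adjusted p = 0.0120). The Polr1c call was lost without KO replicate 1 or 3, and that of Taf1b without KO replicate 2. Another SL1 subunit, Taf1a, was far lower in abundance at 12.8 ± 2.14 CPM in KO and 15.6 ± 2.61 CPM in WT libraries. Its groups overlapped, and its change of -0.28 ± 0.15 was not called (adjusted p = 0.20).

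The most abundant Pol I genes were not called. Ubtf, the architectural factor UBF that coats active ribosomal DNA, had 259.9, 240.9 and 260.4 CPM in KO libraries, against 279.3, 256.5 and 249.4 CPM in WT libraries (log2 fold change -0.04 ± 0.07, adjusted p = 0.667). Polr1a, the largest catalytic subunit, had 233.4, 257.4 and 261 CPM in KO libraries, against 256.4, 237.6 and 232.2 CPM in WT libraries (log2 fold change 0.05 ± 0.07, adjusted p = 0.637). The groups overlapped for both genes, and the sign of each small difference changed under some settings. Per kilobase of transcript, a scale on which genes can be compared, the subunits spanned 10.6 CPM per kb (Polr1e) to 47.1 CPM per kb (Polr1c) in KO cells and 9.92 CPM per kb (Polr1e) to 56.3 CPM per kb (Polr1c) in WT cells. On that scale Polr1b stood at 33.5 CPM per kb in KO and 24.6 CPM per kb in WT cells, and Polr1a at 27.2 CPM per kb in KO and 26.3 CPM per kb in WT cells. Polr1b was thus above Polr1a in KO cells and slightly below it in WT cells; the difference between the genes' changes was not tested.

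Among 15 further Pol I subunits and factors, 2 were called higher and 3 lower, with a median log2 fold change of -0.04. These shares, 13.3% and 20%, are near the 13.5% and 16.9% of all tested genes. The higher ones were Nat10, an acetyltransferase of rRNA and other RNAs, at 185.8 ± 2.45 CPM in KO and 137.8 ± 5.93 CPM in WT libraries (log2 fold change 0.43 ± 0.06, adjusted p = 0.00128), and Ttf1, which terminates Pol I transcription, at 40.8 ± 4.19 CPM in KO and 30.9 ± 1.82 CPM in WT libraries (0.39 ± 0.09, adjusted p = 0.0149). Sirt7, a nucleolar deacetylase linked to Pol I activity, was lower at 32.7 ± 0.535 CPM in KO and 39.7 ± 2.33 CPM in WT libraries (-0.27 ± 0.07, adjusted p = 0.0210). Kdm2b, a histone demethylase reported at ribosomal DNA, was lower at 37.1 ± 1.95 CPM in KO and 44.3 ± 1.62 CPM in WT libraries (-0.25 ± 0.07, adjusted p = 0.0276). Both higher genes lie on chromosome 2, whose tested genes are described with the chromosome results. The higher calls came to 1 without KO replicate 1, KO replicate 3 or WT replicate 3, and the lower calls to 0 without KO replicate 1, KO replicate 2 or WT replicate 2 and to 1 without KO replicate 3.

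The core proteins of small nucleolar RNPs, which guide methylation and pseudouridylation of the precursor, showed no change called in the reported fit. Of 7 tested, limma called 0 at adjusted p under 0.05, 1 was higher at an unadjusted p under 0.05, edgeR called 0 and DESeq2 called 1 higher. Once each library was corrected for length and GC content of transcripts, limma called 4 of the 7 higher (28.5% of all tested genes). Nop58 was among these 4 (adjusted p = 0.0281). Their median log2 fold change was 0.05 and their range -0.06 to 0.20. Nop58, a scaffold of box C/D particles, had 465.5, 414.5 and 462.4 CPM in KO libraries, against 370.5, 433.3 and 408.6 CPM in WT libraries (log2 fold change 0.15 ± 0.08, adjusted p = 0.206). Nolc1, a chaperone that both particle classes bind, had 415.5, 377.7 and 430.5 CPM in KO libraries, against 431.2, 398.7 and 374.6 CPM in WT libraries (0.02 ± 0.08, adjusted p = 0.854). In both cases the groups overlapped.

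Per kilobase, the partners of the box C/D particle were at similar heights. Nop58 stood at 261 ± 16.7 CPM per kb in KO and 236 ± 18.5 CPM per kb in WT cells. Nop56, its paired scaffold, stood at 203 ± 17.7 CPM per kb in KO and 211 ± 15.2 CPM per kb in WT cells. The methyltransferase Fbl stood at 173 ± 7.25 CPM per kb in KO and 167 ± 9.28 CPM per kb in WT cells. In the box H/ACA particle the pseudouridine synthase Dkc1 stood at 82.4 CPM per kb in KO and 84.4 CPM per kb in WT cells. There Nhp2 was higher, at 112 CPM per kb in KO and 103 CPM per kb in WT cells, and Gar1 lower, at 50.2 CPM per kb in KO and 43.6 CPM per kb in WT cells. The order of these 6 proteins was the same in both lines. None of 13 other box C/D and H/ACA factors was called by limma, while 1 was higher and 1 lower at an unadjusted p under 0.05, edgeR called 1 higher and DESeq2 1 higher. The most abundant of them were Tcof1, which links Pol I to modification (182 ± 19.5 CPM in KO and 187 ± 17.6 CPM in WT libraries), and Snu13, which binds the guide RNA (152 ± 5.75 CPM in KO and 138 ± 10.4 CPM in WT libraries).

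The 9 members for the SSU processome and 40S maturation leaned one way. All 9 had a positive log2 fold change, between 0.13 and 0.35 with a median of 0.19. Of all 10614 tested genes, 4919 had a positive one. In 8 of the 9 every KO library was above every WT library (20.9% of all tested genes did so). Limma called 2 of the 9 higher in KO cells (13.5% of all tested genes). edgeR called 4 higher (15.4% of all tested genes) and DESeq2 7 (17.6% of all tested genes), and none was called lower. All 9 signs were also positive under each of the 20 alternative settings, with the lowest value, 0.03, under quantile normalization. Utp20, a very large component of the processome (chr10:88746607-88826804, minus strand), had 202.8, 224.5 and 254.2 CPM in KO libraries, against 170, 191.7 and 171.1 CPM in WT libraries. The KO libraries were all above the WT libraries but spread widely, and the log2 fold change was 0.35 ± 0.09 (adjusted p = 0.0255). Rrp12, needed for export of 40S precursors from the nucleus (chr19:41862851-41896173, minus strand), had 77.2, 85.3 and 81.3 CPM in KO libraries, against 75.8, 62.9 and 61.1 CPM in WT libraries. WT replicate 1 nearly touched the KO range, and the log2 fold change was 0.29 ± 0.09 (adjusted p = 0.0480). The Utp20 call was lost without KO replicate 2 or 3 or WT replicate 3 and with quantile normalization. That of Rrp12 was lost under 13 of 20 alternatives, among them the removal of any KO replicate, of WT replicate 2 or of WT replicate 3.

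Utp20 is the other called member with CACGTG in its promoter window. The 30 bases that hold it lie just after the RefSeq start, chr10:88826765-88826794 on the minus strand of GRCm38.p6, and the motif, in capitals, begins at base +38.
Utp20 start region: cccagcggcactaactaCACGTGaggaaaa

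The abundant uncalled genes of this group were 2 of the early-acting proteins that join the nascent precursor. Wdr43 had 398, 367.4 and 395.4 CPM in KO libraries, against 321.3, 364.2 and 354.9 CPM in WT libraries, with no overlap but a small gap (log2 fold change 0.16 ± 0.07, adjusted p = 0.130). Wdr75 had 194.3, 185.9 and 204.8 CPM in KO libraries, against 165, 193.2 and 177.3 CPM in WT libraries, where the groups overlapped (0.13 ± 0.08, adjusted p = 0.238). Among the others, Tsr1 shares 32.3% of its exon bases with Srr on the opposite strand and Bysl 9.4% with Ccnd3. Whether counting used strand was not given in the sources used here, and reads of such pairs cannot be told apart.

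Of 43 other SSU processome and 40S factors, 7 were called higher (16.3%, against 13.5% of all tested genes). Only 1 was called lower (2.33%, against 16.9% of all tested genes), and the median was 0.07. The 43 factors did not all lean one way, with 32 fold changes above 0 and 11 below, from -0.27 to 0.51. The 4 with the lowest adjusted p among the called were all higher in KO cells. Pno1, a late 40S factor, stood at 97.8 ± 2.21 CPM in KO and 72.6 ± 4.87 CPM in WT libraries (log2 fold change 0.43 ± 0.07, adjusted p = 0.00273). Nop9, an RNA-binding protein of the early 40S pathway, stood at 77.5 ± 4.90 CPM in KO and 60.3 ± 3.56 CPM in WT libraries (0.36 ± 0.07, adjusted p = 0.00872). Dcaf13 stood at 112 ± 3.42 CPM in KO and 93.2 ± 3.42 CPM in WT libraries (0.27 ± 0.06, adjusted p = 0.0126). Pwp2, part of the complex that carries U3 into the processome, stood at 95.8 ± 5.02 CPM in KO and 78.0 ± 4.37 CPM in WT libraries (0.30 ± 0.07, adjusted p = 0.0155). None of these 4 lies on chromosome 2, and the list's higher calls came to 3 without KO replicate 1, KO replicate 3 or WT replicate 3, to 4 without KO replicate 2 and to 11 without WT replicate 1. Its 1 lower call was lost without any library other than WT replicate 1.

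Among the 60S assembly genes 1 of 8 was called (12.5%, against 30.4% of all tested genes), with a median log2 fold change of 0.05. That gene was Wdr12, a member of the PeBoW complex that pairs with Pes1 and Bop1 to process the 32S precursor (chr1:60069785-60098645, minus strand). It had 268.8, 273.5 and 258.2 CPM in KO libraries, against 217, 219.2 and 218.7 CPM in WT libraries. The 3 WT libraries nearly coincided and lay well below every KO library (log2 fold change 0.29 ± 0.06, adjusted p = 0.00621). Neither partner was called in the reported fit. Pes1 had 247.7, 240.2 and 225 CPM in KO libraries, against 254.9, 225.9 and 230.2 CPM in WT libraries (0.01 ± 0.07, adjusted p = 0.970). Bop1 averaged 109.8 ± 5.33 CPM in KO and 106.7 ± 9.44 CPM in WT libraries (0.04 ± 0.08, adjusted p = 0.716). Whether the change of Wdr12 differs from those of its partners was not tested. Once each library was corrected for length and GC content of transcripts, the log2 fold change of Wdr12 was 0.33 and was not called (adjusted p = 0.0807). With that correction limma called Bop1 higher (0.126, adjusted p = 0.0432) and did not call Pes1 (0.047, adjusted p = 0.609).

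Nop2, a methyltransferase of 28S rRNA, was the most abundant 60S gene by CPM among those not called. It had 261.8, 255.4 and 259.4 CPM in KO libraries, against 286.2, 256.4 and 251.4 CPM in WT libraries, and the groups overlapped (log2 fold change -0.03 ± 0.07, adjusted p = 0.776). The remaining 60S members, Nop16, Rrs1, Nip7 and the helicase Ddx18, had log2 fold changes between 0.01 and 0.11. After the length and GC correction limma called Nop16 (adjusted p = 0.0236) and Ddx18 (adjusted p = 0.0437) higher, as it did 28.5% of all tested genes. Of 49 other 60S assembly factors, 9 were called higher (18.4%, against 13.5% of all tested genes). A further 3 were called lower (6.12%, against 16.9% of all tested genes), and the median was 0.05. The higher calls came to 5 and the lower ones to 1 without any 1 of the KO replicates. The lower ones also came to 1 without WT replicate 2. The 4 named by adjusted p were Ddx31 (52.1 ± 1.1 CPM in KO and 36.1 ± 1.98 CPM in WT libraries, log2 fold change 0.52 ± 0.07, adjusted p = 0.000985), Ddx27 (145 ± 7.39 CPM in KO and 112 ± 7.01 CPM in WT libraries, 0.37 ± 0.07, adjusted p = 0.00631), Surf6 (69.2 ± 0.872 CPM in KO and 54.99 ± 3.48 CPM in WT libraries, 0.33 ± 0.07, adjusted p = 0.00837) and Eif6 (174 ± 13.8 CPM in KO and 127 ± 14.3 CPM in WT libraries, 0.46 ± 0.10, adjusted p = 0.00881). Ddx31 and Ddx27 are nucleolar helicases, and Eif6 keeps immature 60S subunits from joining 40S subunits. All 4 lie on chromosome 2.

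The nucleolar proteins with several roles include the most abundant members. Ncl (nucleolin, which binds pre-rRNA and many messages) had 4533, 3622 and 4688 CPM in KO libraries, against 3547, 4001 and 3803 CPM in WT libraries, and ranked 8 among all tested genes. KO replicate 2 fell among the WT libraries, and the log2 fold change of 0.17 ± 0.11 was not called (adjusted p = 0.297). Npm1 (nucleophosmin, a nucleolar chaperone) had 2953, 2648 and 2820 CPM in KO libraries, against 2495, 2882 and 2883 CPM in WT libraries, and ranked 12 (0.03 ± 0.09, adjusted p = 0.832). Npm1 has processed copies elsewhere in the genome that can share reads with it, so its level is uncertain to that extent. Pa2g4, a growth-regulated RNA-binding protein found in pre-ribosomes and also known as EBP1 (chr10:128557766-128565987, minus strand), had 654.4, 643.9 and 620.2 CPM in KO libraries, against 536.6, 504 and 508.5 CPM in WT libraries. The groups were far apart relative to their spread (0.31 ± 0.06, adjusted p = 0.00671). Pa2g4 and Polr1b kept their call under all 20 alternatives, with adjusted p up to 0.0472 for Pa2g4 and 0.0130 for Polr1b. Of the other 3 members in this group, Ddx21 and Mybbp1a had fold changes of 0.18 and 0.14 and Gnl3 (nucleostemin) one of -0.14. Limma called none of these 3, whereas Ddx21 was called higher by edgeR (adjusted p = 0.0464) and DESeq2 (adjusted p = 0.00354).

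**Figure D3:**
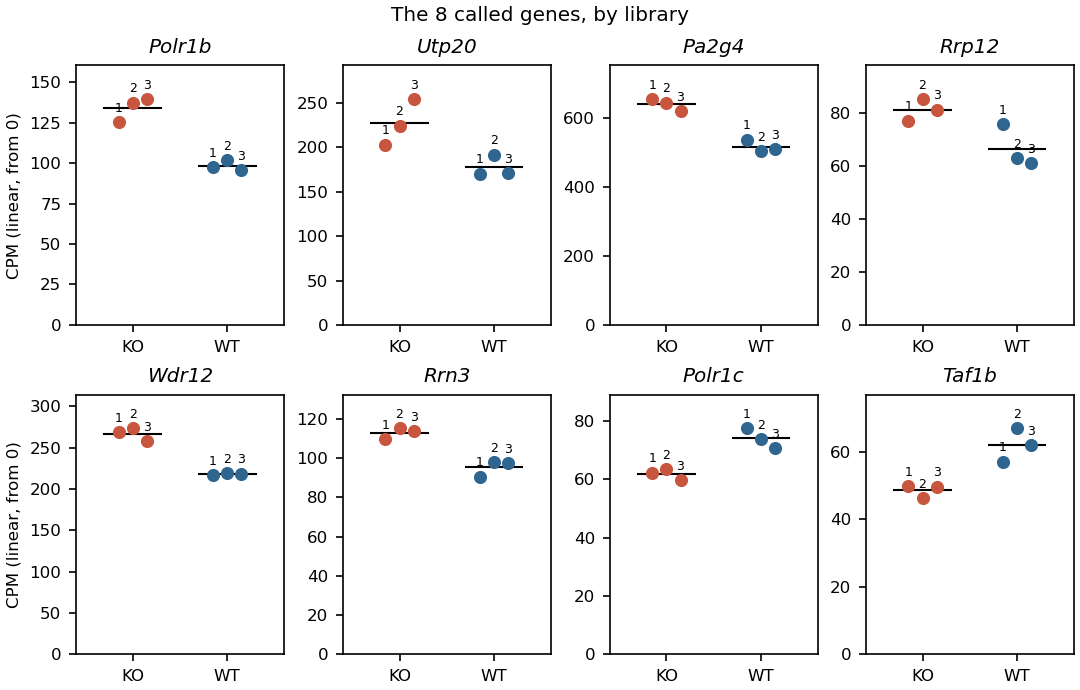
Level in CPM (linear axes from 0) of the 8 called genes in each KO and WT library, numbered by replicate, with a line at the group mean. In each panel the KO and WT points do not overlap, with the widest gap for its size in Polr1b (134 CPM in KO and 98.2 CPM in WT libraries on average) and the narrowest in Rrp12, where WT replicate 1 is just under KO replicate 1.

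Summed over all members but Rn45s, these genes took 1.53%, 1.38% and 1.55% of reads in KO libraries and 1.33%, 1.42% and 1.37% in WT libraries. KO replicate 2 fell within the WT range, so the groups overlapped on this sum, which Ncl and Npm1 dominate. The messages for the ribosomal proteins themselves were lower in KO cells. They took 6.94%, 7.14% and 6.12% of reads in KO libraries, against 9.09%, 8.01% and 8.31% in WT libraries, with no overlap. Of 74 tested ribosomal protein genes 53 were called lower (71.6%, against 16.9% of all tested genes). Only 1 was called higher (1.35%, against 13.5% of all tested genes), and the median log2 fold change was -0.345. The lower calls were 32 with TMM scaling and 37 after the length and GC trend was removed, and leaving out single libraries gave 25 to 52, the lowest without KO replicate 1. The 4 named by adjusted p were Rps12 (745 ± 61.4 CPM in KO and 1063 ± 71.9 CPM in WT libraries, log2 fold change -0.51 ± 0.08, adjusted p = 0.00301), Rplp0 (1386 ± 149 CPM in KO and 2084 ± 143 CPM in WT libraries, -0.59 ± 0.10, adjusted p = 0.00304), Rpl22 (424 ± 15.6 CPM in KO and 537.5 ± 13.4 CPM in WT libraries, -0.34 ± 0.06, adjusted p = 0.00419) and Rpl10a (635 ± 39.0 CPM in KO and 849 ± 47.9 CPM in WT libraries, -0.42 ± 0.07, adjusted p = 0.00430). Ribosomal protein genes have many processed copies, so their counts are uncertain to that extent. Thus the factors that build ribosomes had a median slightly above that of all genes and the proteins built into them a median well below it; the difference between the lists was not tested.

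Neighbouring pathways gave mixed counts. Among 22 tested exosome subunits and pre-rRNA nucleases, 5 were called higher (22.7%, against 13.5% of all tested genes). Only 1 was called lower (4.55%, against 16.9% of all tested genes). The higher ones included Xrn2, the nuclear 5′ to 3′ exonuclease (448 ± 15.1 CPM in KO and 317 ± 20.3 CPM in WT libraries, log2 fold change 0.50 ± 0.07, adjusted p = 0.00127). Exosc2, an RNA-binding cap subunit of the exosome, stood at 22.8 ± 1.05 CPM in KO and 15.9 ± 1.92 CPM in WT libraries (0.51 ± 0.10, adjusted p = 0.00701). Of the RNase P and MRP subunits, Rpp38 stood at 19.98 ± 0.545 CPM in KO and 16.04 ± 1.09 CPM in WT libraries (0.31 ± 0.08, adjusted p = 0.0202). Rpp40 stood at 35.0 ± 0.876 CPM in KO and 26.2 ± 4.00 CPM in WT libraries (0.42 ± 0.11, adjusted p = 0.0245). Xrn2, Exosc2 and Rpp38 lie on chromosome 2 and Rpp40 does not; the higher calls came to 2 without any 1 of the KO replicates and to 3 without WT replicate 3, and the lower call was lost in each of these cases.

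RNA polymerase III, which makes 5S rRNA and tRNAs, had 4 genes called higher and 3 lower of 21 tested. That is 19% higher and 14.3% lower, against 13.5% and 16.9% of all tested genes. Gtf3c4 and Gtf3c5, subunits of TFIIIC, were higher, Gtf3c4 at 153 ± 4.30 CPM in KO and 106 ± 1.69 CPM in WT libraries (log2 fold change 0.53 ± 0.06, adjusted p = 0.000362) and Gtf3c5 at 51.6 ± 0.826 CPM in KO and 37.5 ± 2.70 CPM in WT libraries (0.46 ± 0.07, adjusted p = 0.00251). Polr3gl, one of a pair of alternative Pol III subunits, was lower at 30.4 ± 2.00 CPM in KO and 55.3 ± 5.49 CPM in WT libraries (-0.85 ± 0.09, adjusted p = 0.000368). Brf1, a subunit of the initiation factor TFIIIB, was lower at 24.1 ± 2.02 CPM in KO and 36.2 ± 4.44 CPM in WT libraries (-0.57 ± 0.11, adjusted p = 0.00496). All 4 higher Pol III genes lie on chromosome 2 and the 3 lower ones do not.

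Of 25 tested MYC targets outside the nucleolus, 4 were called higher and 2 lower, with a median of 0.08. That is 16% higher and 8% lower, against 13.5% and 16.9% of all tested genes. Ldha (lactate dehydrogenase A) was lower at 1206 ± 88.3 CPM in KO and 1567 ± 98.8 CPM in WT libraries (log2 fold change -0.38 ± 0.08, adjusted p = 0.0108). Slc7a5, a transporter of large neutral amino acids, was higher at 327 ± 28.9 CPM in KO and 250.6 ± 26.5 CPM in WT libraries (0.38 ± 0.10, adjusted p = 0.0196). Shmt1, a serine hydroxymethyltransferase, was higher at 59.7 ± 3.69 CPM in KO and 49.98 ± 1.91 CPM in WT libraries (0.25 ± 0.07, adjusted p = 0.0304). Tert, the telomerase catalytic subunit, was lower near the filter, at 1.48 ± 0.340 CPM in KO and 2.56 ± 0.636 CPM in WT libraries (-0.62 ± 0.18, adjusted p = 0.0346). The higher calls came to 0 without KO replicate 2, KO replicate 3 or WT replicate 3 and to 2 without KO replicate 1 or WT replicate 2. The lower calls came to 1 without KO replicate 1, KO replicate 2 or WT replicate 2.

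**Figure D4:**
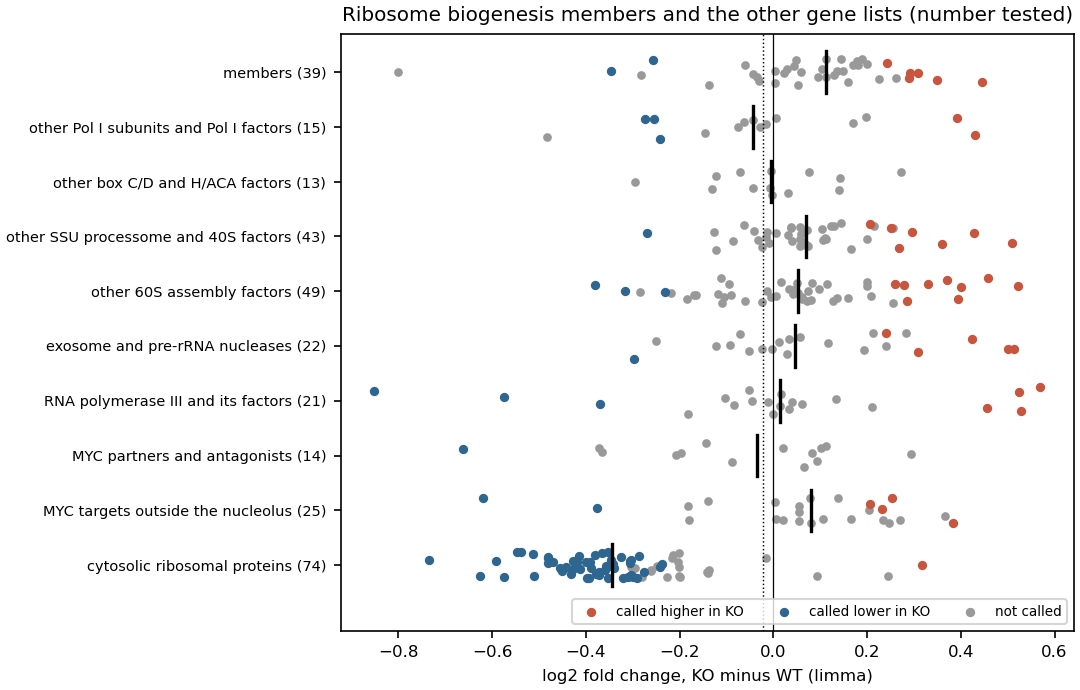
Log2 fold change (KO minus WT) of every tested gene in the ribosome biogenesis group and in 9 other lists, coloured by limma call, with a bar at each list's median and a dotted line at the median of all tested genes. The ribosomal protein genes sit mostly left of 0 (median -0.345) while the members sit around 0.11.

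Chromosome position bears on several of these counts. On chromosome 2, 499 of 856 tested genes (58.3%) were called higher, with a median log2 fold change of 0.34. Of the members, Polr1b and Nop56 lie there, the first called higher and the second at -0.06 ± 0.09 (adjusted p = 0.631), with groups that overlapped. Away from chromosome 2, 5 of 36 placed members were called higher (13.9%), against 9.59% of all tested genes there, and 2 were called lower (5.56%), against 18% of all tested genes there (1734 of 9644). In the 5 other ribosome assembly lists together (Pol I, snoRNP, SSU and 40S, 60S, and exosome and nucleases), 23 of 142 genes were called higher and 8 lower. That is 16.2% higher and 5.63% lower, against 13.5% and 16.9% of all tested genes. Of the lists' 11 tested genes on chromosome 2, 10 were called higher, and of 130 placed elsewhere, 13 were. The log2 fold change of Polr1b, 0.45, stands beside the chromosome's median of 0.34. The part of chromosome 2 in its result was not tested.

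The libraries also differed in a way tied to base composition. Across 38 members, the log2 difference between WT replicate 1 and WT replicate 2 rose with the GC content of the transcript (Pearson r 0.75, Spearman rho 0.76), from -0.33 (Gnl3) to 0.31 (Rrp9). The difference between WT replicate 1 and WT replicate 3 did so too (r 0.83, rho 0.83), while that between WT replicate 3 and WT replicate 2 went with GC content only weakly (r 0.18, rho 0.15). KO libraries showed weaker relations than those with WT replicate 1. KO replicate 2 minus KO replicate 3 had r 0.43 (rho 0.40), and KO replicate 1 minus KO replicate 2 had r -0.33 (rho -0.36). The KO minus WT difference showed no such relation (r 0.05, rho 0.04) but went with log2 transcript length (r 0.43). These correlations describe 38 genes measured in the same libraries, and genes are not independent replicates. When the trend with length and GC was removed from each library, 22 of 38 members were called higher (28.5% of all tested genes) and 2 lower (20.7% of all tested genes), among them all 9 SSU and 40S members as higher. That correction also changed the split of all calls, of which 57.9% were then higher, compared with 44.5% as deposited and 34.1% with upper quartile scaling. The median of the members was 0.16 after it, beside 0.03 over all genes, so the distance between them was 0.129, beside 0.135 without it. The number of called members thus depended on this correction far more than their median relative to other genes did. Other settings moved that distance more. It was 0.049 with quantile normalization, where 23 members were above 0, and 0.087 without WT replicate 2. The largest was 0.148, without WT replicate 1.

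**Figure D5:**
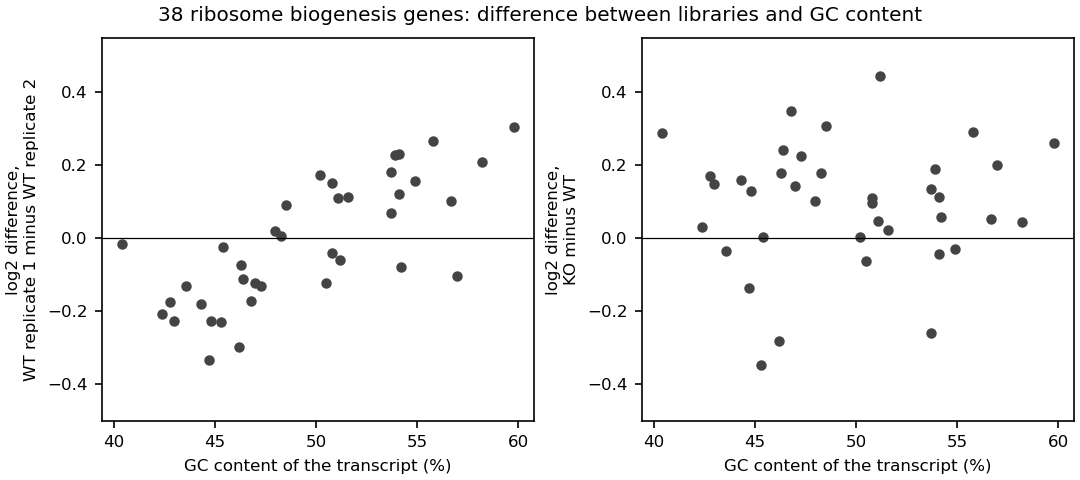
GC content of the transcript (%) against the log2 difference between WT replicates 1 and 2 (left) and between KO and WT (right), 1 point for each of 38 members. The left panel slopes upward, within -0.33 to 0.31, between the GC-poor and GC-rich ends (40.4% to 59.8%), and the right panel shows no slope.

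Promoter windows of 300 bases (250 before to 50 after the start, RefSeq, GRCm38.p6) were at hand for 33 of the 40 members. CACGTG, searched as these letters and identical on both strands, was in the windows of 7 of the 33 (21.2%). It was in those of 12.3% of tested genes, 18.3% of the other assembly genes and 9.68% of ribosomal protein genes, and in 8.09% of all genes with a window. The 7 were Rrn3, Utp20, Wdr43, Tsr1, Nop2, Pes1 and Mybbp1a. Of these, limma called Rrn3 and Utp20 higher and did not call the other 5, with log2 fold changes between -0.03 (Nop2) and 0.16 (Wdr43). The called members Polr1b, Wdr12, Pa2g4, Polr1c and Taf1b had windows without these letters. A match is a description of the letters in a window and not evidence of binding.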

How the data were processed

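RNA was poly(A)-selected with the KAPA mRNA HyperPrep kit and sequenced as paired-end 125-nucleotide reads on an Illumina HiSeq instrument, per the labels' protocols. The submitters' processing notes name STAR 2.6.0a, SAMtools, Picard, FastQC and Trim Galore, with mm10 as the genome build. Alignments were coordinate-sorted with duplicates removed, per the file headers. What counted the reads, with which annotation and whether by strand, is information not given in the sources used here. A table of CPM, reads scaled to a common library total, was deposited by the authors for 24848 gene symbols, of which 7683 were at 0 in all 6 libraries. Duplicate removal caps the reads that very abundant or short transcripts can keep.

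All values (100%) were whole multiples of the CPM of 1 read within a tolerance of 0.01, so whole reads were recovered. These were 70411383, 59768682 and 66647726 in KO replicates 1 to 3 and 50493447, 67392191 and 58408190 in WT replicates 1 to 3. A floor of 3 reads equals 0.0426 to 0.0594 CPM. Without molecular identifiers, such floors cover the error of counting alone. The test used log2(CPM + 0.5) of genes that reached 1 CPM in 3 or more of 6 libraries, in limma 3.58.1 under R 4.3.3 (lmFit, eBayes with trend, no covariates), with Benjamini-Hochberg adjustment over 10614 genes and a threshold of 0.05. Medians and counts of lists are descriptions without a test. Pearson correlations across genes were 0.996 to 0.998 within KO, 0.988 to 0.996 within WT and 0.969 to 0.978 between the lines. No pair of libraries was alike within sampling noise (smallest chi-square 37.6 per degree of freedom). By this measure, with Rn45s included, WT replicate 2 stood at 197.8 from WT replicate 1 and 121.3 from WT replicate 3. WT replicates 1 and 3 stood at 46.4 from each other, and pairs of KO with WT libraries at 128.9 to 260.5. The fit was tested on simulated counts.

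Alternatives were other pseudocounts, filters and scalings, limma without trend, removal of a length and GC trend from each library (98.9% of tested genes had both values), edgeR 4.0.16 and DESeq2 1.42.0 on recovered reads, a replicate block, and leaving out each library. Counts without chromosome 2 were added after seeing the data. Positions, lengths and GC content are from GENCODE M21 on mm10, where 24305 symbols matched and 543 did not, Rn45s among them. Promoter sequences are from RefSeq.

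The members and lists were chosen with earlier results of these data known. Named in the text are Rn45s, Myc, each called member, the 2 most abundant uncalled members of each role, up to 4 called genes of each other list by adjusted p (or its 2 most abundant where none was called) and Apobec1. Other genes, such as Mycn, Mycl, the genes listed at 0 and uncalled members beyond that rule, were named after their values were seen. Python 3.11.15 and scipy 1.17.1 were used for the permutation test.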

Additional observations from a re-analysis of the deposited data

How the results depend on the processing

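Counts and medians of the members were computed under 20 alternatives and without chromosome 2 (5 higher and 2 lower away from it). Genes called over the whole table numbered 3230, and 5159 after the length and GC trend was removed; leaving out single libraries gave 1973 (without KO replicate 1) to 3761. Members called higher numbered 6 in the reported fit, 13 with DESeq2, 22 after removal of the length and GC trend, 3 with quantile normalization, and 3 to 9 when single libraries were left out. Members called lower numbered 2, and 1 to 3 without single libraries. The median log2 fold change of the members was 0.11 as reported and positive throughout, with 0.139 (DESeq2), 0.138 (TMM scaling), 0.159 (length and GC trend removed), 0.050 (quantile normalization) and 0.064 (upper quartile scaling). Leaving out single libraries gave 0.090 to 0.105.

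The fit with a replicate block called 2009 genes, with 3 members higher and 0 lower (no member was lower at adjusted p under 0.05 in that limma fit, against 2 without the block, and edgeR and DESeq2 each called 2). Rrn3 (adjusted p = 0.0964) and Wdr12 (adjusted p = 0.0532) were among those not called with the block. Deviations of same-numbered KO and WT libraries correlated at -0.25, -0.64 and -0.17. Libraries with unlike numbers ran from -0.44 (KO replicate 3 with WT replicate 1) to 0.58 (KO replicate 2 with WT replicate 1) and 0.61 (KO replicate 3 with WT replicate 2). The deviations were taken from each group's own mean, so these correlations constrain one another and cannot settle whether libraries were paired. The log2 fold change of Rn45s was negative under each alternative run for it, from -1.72 (without WT replicate 2, called) to -0.30 (without WT replicate 1) when single libraries were left out. Myc, under the filter in the reported fit, had 0.38 at the pseudocount of 0.5, 0.88 at 0.1 and 0.23 at 1, and was called higher with no filter (0.38, adjusted p = 0.0311).

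Signs changed under at least 1 alternative for 12 of the 30 uncalled members other than Rn45s, none of which was over 0.061 in size as reported. They were Ubtf, Polr1a, Nolc1, Nop2, Pes1 and Npm1, given next, and Fbl, Nop56, Dkc1, Bop1, Rrs1 and Nip7, which ran between -0.135 (Nop56) and 0.175 (Fbl) over all alternatives. After removal of the length and GC trend Ubtf had 0.023 and Nop2 0.043. With quantile normalization Polr1a had -0.013, Nolc1 -0.041 and Pes1 -0.064. With upper quartile scaling Nolc1 had -0.025, Pes1 -0.043 and Npm1 -0.018, and rescaled without Rn45s Pes1 had -0.010. Over the left-out libraries Ubtf ran from -0.078 to 0.004, Nolc1 from -0.026 to 0.077, Nop2 from -0.066 to 0.028, Pes1 from -0.029 to 0.058 and Npm1 from -0.040 to 0.071. The cause of these changes was not tested. At this depth counting error is small for all members but Myc, and the spread between 3 libraries sets the precision.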
